A study of Mus musculus with 8 samples.

Results

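Back-skin epidermis of wild-type FVB mice that had received only acetone, the solvent of the carcinogens, was sequenced as 2 sets of 2 libraries, which are 4 of the 8 libraries of the study. They were chosen by their titles. The set Control DMBA accompanies a regimen of 100 µl DMBA at 1 mg/ml, given 1 time, with harvest on day 10. The set Control DMBA/TPA accompanies a regimen in which TPA at 0.1 mg/ml came after that DMBA dose, 2 times a week, until harvest on day 52. DMBA (7,12-dimethylbenz[a]anthracene) is a mutagen that starts skin tumours, and TPA (12-O-tetradecanoylphorbol-13-acetate) is a phorbol ester that promotes them. According to the design text the mice were 7 to 8 weeks old, and all libraries carry the genotype label WT. The labels give no harvest day for either acetone set, so that age at harvest, duration of acetone treatment, season, hair cycle stage and day of preparation cannot be told apart from the set. Nothing in the labels says that the 2 libraries of a set come from separate animals. The p-values then rest on a spread between libraries that may be technical.

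The epidermis is a stratified sheet in which basal keratinocytes divide, move up and turn into flattened, crosslinked corneocytes embedded in lipid. Dispase separates this sheet from the dermis, and hair follicles, with their inner root sheath, growing shaft, stem cells, melanocytes and sebaceous glands, can come away with it. Follicles cycle between growth (anagen), regression (catagen) and rest (telogen), and hair shaft keratins, keratin-associated proteins and inner root sheath proteins are made during growth, in the lower follicle. Sebaceous glands make lipid in every stage, and the interfollicular epidermis makes the cornified envelope and the barrier lipids.

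Genes for hair proteins and for cornified envelope proteins are among those that differed between the sets. The sequence before the start of 5 of them is shown because it holds the letters of well-known motifs. Each line gives the 250 bases before the RefSeq gene start on GRCm38.p6, 5′ to 3′ on the gene's strand, with capitals at every match to TATAAA (the TATA box), CTTTGA (the core bound by LEF1 and TCF, which carry Wnt signals in the hair matrix) and TGANTCA (the AP-1 site), on either strand. Krt34 encodes a hair shaft keratin (chr11:100041555-100041804, minus strand), Krt71 an inner root sheath keratin (chr15:101743098-101743347, minus strand) and Krtap21-1 a keratin-associated protein of the hair shaft (chr16:89403775-89404024, minus strand). Sprr1a (chr3:92485882-92486131, minus strand) and Lce1m (chr3:93019062-93019311, minus strand) encode a small proline-rich and a late cornified envelope protein.
Krt34: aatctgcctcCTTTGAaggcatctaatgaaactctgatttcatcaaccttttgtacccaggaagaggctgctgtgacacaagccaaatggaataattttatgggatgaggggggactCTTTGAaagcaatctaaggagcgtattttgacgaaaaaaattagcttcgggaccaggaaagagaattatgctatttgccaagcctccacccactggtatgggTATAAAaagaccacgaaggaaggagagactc
Krt71: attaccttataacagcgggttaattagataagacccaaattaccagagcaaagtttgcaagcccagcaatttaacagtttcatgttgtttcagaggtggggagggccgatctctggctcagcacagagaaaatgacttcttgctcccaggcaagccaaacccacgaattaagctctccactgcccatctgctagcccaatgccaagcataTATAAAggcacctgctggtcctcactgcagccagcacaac
Krtap21-1: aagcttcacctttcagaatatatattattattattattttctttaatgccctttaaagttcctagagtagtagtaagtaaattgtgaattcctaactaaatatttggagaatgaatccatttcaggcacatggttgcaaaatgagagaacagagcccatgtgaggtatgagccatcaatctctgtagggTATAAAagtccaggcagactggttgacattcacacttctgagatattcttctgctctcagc
Sprr1a: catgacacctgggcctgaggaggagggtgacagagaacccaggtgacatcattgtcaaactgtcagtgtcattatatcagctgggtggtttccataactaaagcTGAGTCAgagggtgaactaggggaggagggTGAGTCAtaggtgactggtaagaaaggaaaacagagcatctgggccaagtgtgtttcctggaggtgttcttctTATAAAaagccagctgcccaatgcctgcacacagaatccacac
Lce1m: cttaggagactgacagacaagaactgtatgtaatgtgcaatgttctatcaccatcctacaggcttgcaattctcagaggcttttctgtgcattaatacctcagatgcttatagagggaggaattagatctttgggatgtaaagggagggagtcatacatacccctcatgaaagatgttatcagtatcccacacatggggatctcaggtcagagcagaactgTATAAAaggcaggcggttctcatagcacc
No match overlapped another in these 5 windows. RefSeq gave a window for 51 of the 57 keratin-associated protein genes, 9 of the 15 hair shaft keratin genes and 10 of the 11 inner root sheath genes. TATAAA stood in 41 of the 51 keratin-associated protein windows, in 6 of the 9 hair shaft keratin windows and in 8 of the 13 inner root sheath windows (1 gene can have several), against 12.4% of all 32851 windows. CTTTGA stood in 5 of the 9 hair shaft keratin windows and in 12 of the 51 keratin-associated protein windows, against 13.8% of all. TGANTCA stood in 20 of the 49 cornified envelope windows and in 10 of the 51 keratin-associated protein windows, against 6.75% of all. It stood in 0 of the 9 hair shaft keratin windows and in 0 of the 13 inner root sheath windows. Of the 49 cornified envelope windows, 20 held TATAAA and 6 held CTTTGA. These shares are descriptions, and genes of 1 cluster share ancestry.

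The acetone libraries held 32610374 and 34842013 counts in genes (Control DMBA 1 and 2) and 28592432 and 35266002 counts (Control DMBA/TPA 1 and 2). The low-count filter kept 19450 of 55487 genes. A gene could pass this filter through a single group in which it was high. Counts of called members of any list are therefore descriptions and no test of the list. The log2 levels correlated with r = 0.9834 between the Control DMBA libraries, 0.991 between the Control DMBA/TPA libraries and 0.9548 to 0.9615 across the sets, over genes that are not independent. Control DMBA 1 stood apart from the other 7 libraries in the Y-linked genes Ddx3y, Eif2s3y, Kdm5d and Uty, chosen after their values were seen. Their summed level was 3.34 CPM there (114 counts) and 0.371 CPM in Control DMBA 2 (13 counts), and no other library held a count. Xist, the RNA that silences 1 X chromosome in female cells, had 2377 CPM in Control DMBA 1 and 1421 to 3304 CPM over all 8 libraries. Control DMBA 1 was also the highest acetone library in summed fibroblast, endothelial and mast cell markers, and results on these markers are given with and without it.

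Among protein-coding nuclear genes, the acetone epidermis was led by the keratins of the interfollicular layers. Levels of different genes are compared in CPM (counts scaled to a common library size) per kb of exon. Mitochondrially encoded genes were left out of this order. On that scale Krt10, the keratin of suprabasal cells, came first with 3115 and 4986 in Control DMBA 1 and 2, against 5297 and 4232 in Control DMBA/TPA 1 and 2. Krt5, a basal keratin, had 3701 and 3991 in Control DMBA 1 and 2, against 3239 and 2824 in Control DMBA/TPA 1 and 2. Krt77, another suprabasal keratin, had 2133 and 3319 in Control DMBA 1 and 2, against 3712 and 3267 in Control DMBA/TPA 1 and 2. Krt10 exceeded Krt5 in every acetone library except Control DMBA 1. The sets overlapped for Krt10 and not for Krt5. Krt5 did not pass the test (log2 fold change -0.34, SE 0.17, edgeR adjusted p = 0.242). Krt14, the partner of Krt5, had 2687 and 3728 in Control DMBA 1 and 2, against 1973 and 1669 in Control DMBA/TPA 1 and 2, with no overlap between the sets. Krt14 was not called (log2 fold change -0.82 ± 0.32 (SE), edgeR adjusted p = 0.158). Krt15, a keratin of basal and follicle bulge cells, had 2569 and 1557 in Control DMBA 1 and 2, against 1667 and 2007 in Control DMBA/TPA 1 and 2, with overlap. The 15 most abundant protein-coding nuclear genes also held Eef1a1 and Rplp1 of the translation machinery and the desmosome genes Perp and Dsp. The galectin Lgals7, the annexin Anxa8 and the secreted suprabasal proteins Dmkn and Krtdap were among them too. Neighbours in this order from Perp to Anxa8 overlapped in their ranges over the 4 libraries. Apoe, which encodes a lipid carrier, was the fifth in this order, with 4162 and 2836 in Control DMBA 1 and 2, against 802 and 826 in Control DMBA/TPA 1 and 2. Apoe passed the test (log2 fold change -2.10, SE 0.23, edgeR adjusted p = 0.00517). That was the widest difference between the sets among the 15. Krt17, a keratin of the follicle's outer layers, had 1443 and 1290.5 in Control DMBA 1 and 2, against 533 and 729 in Control DMBA/TPA 1 and 2. Krt17 was called (log2 fold change -1.11 ± 0.21 (SE), edgeR adjusted p = 0.0249). Dmkn and Krtdap were called higher in Control DMBA/TPA. Of the 4 genes named here as called, 2 held without Control DMBA 1, 2 without Control DMBA 2, 0 without Control DMBA/TPA 1, 2 without Control DMBA/TPA 2, 3 without DMBA 1 and 3 without DMBA 2.

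**Figure D1:**
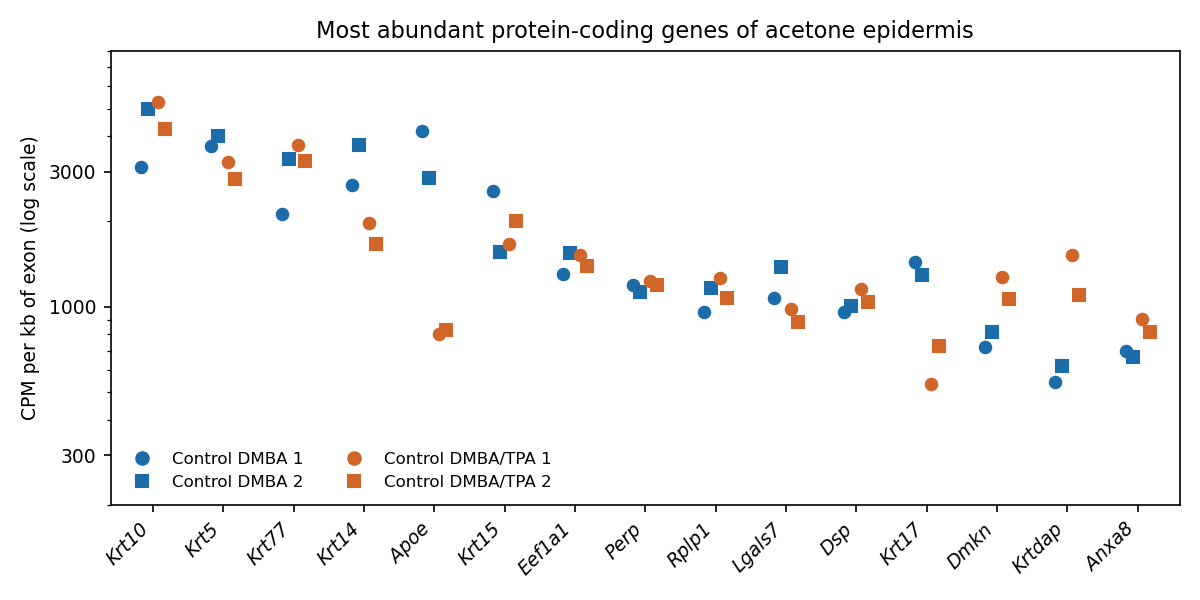
Level of the 15 most abundant protein-coding nuclear genes in each acetone library, in CPM per kb of exon on a log axis. Circles stand for library 1 and squares for library 2 of each set. Apoe and Krt17 lie lower in both Control DMBA/TPA libraries, Dmkn and Krtdap higher.

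Between the sets, 1216 of 19450 tested genes (6.25%) were called by edgeR's quasi-likelihood test at a Benjamini-Hochberg adjusted p under 0.05. Of these, 383 (1.97% of the genes tested) were higher in Control DMBA/TPA and 833 (4.28%) were lower. The median log2 fold change was -1.68 over the lower genes, 0.78 over the higher genes and -0.02 over all tested genes. At least 2-fold changes were seen in 604 of the lower and 139 of the higher genes. The leading principal component of the 4 libraries held 75.4% of their variance. On it the Control DMBA libraries stood at -58 and -61.2, and the Control DMBA/TPA libraries stood at 65.7 and 53.5. All 8 libraries enter the estimate of the spread, and why the count of calls varied between fits was not tested. This count changed with each library left out, the treated ones included. It was 43 without Control DMBA/TPA 1 and 119 without Control DMBA/TPA 2, and it was 490 without Control DMBA 1 and 563 without Control DMBA 2. Leaving out DMBA 1 gave 655, DMBA 2 651, DMBA/TPA 1 2598 and DMBA/TPA 2 2572. Lower genes made up 68.5% of the calls, 81.6% without Control DMBA 1 and 85.6% without Control DMBA 2.

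**Figure D2:**
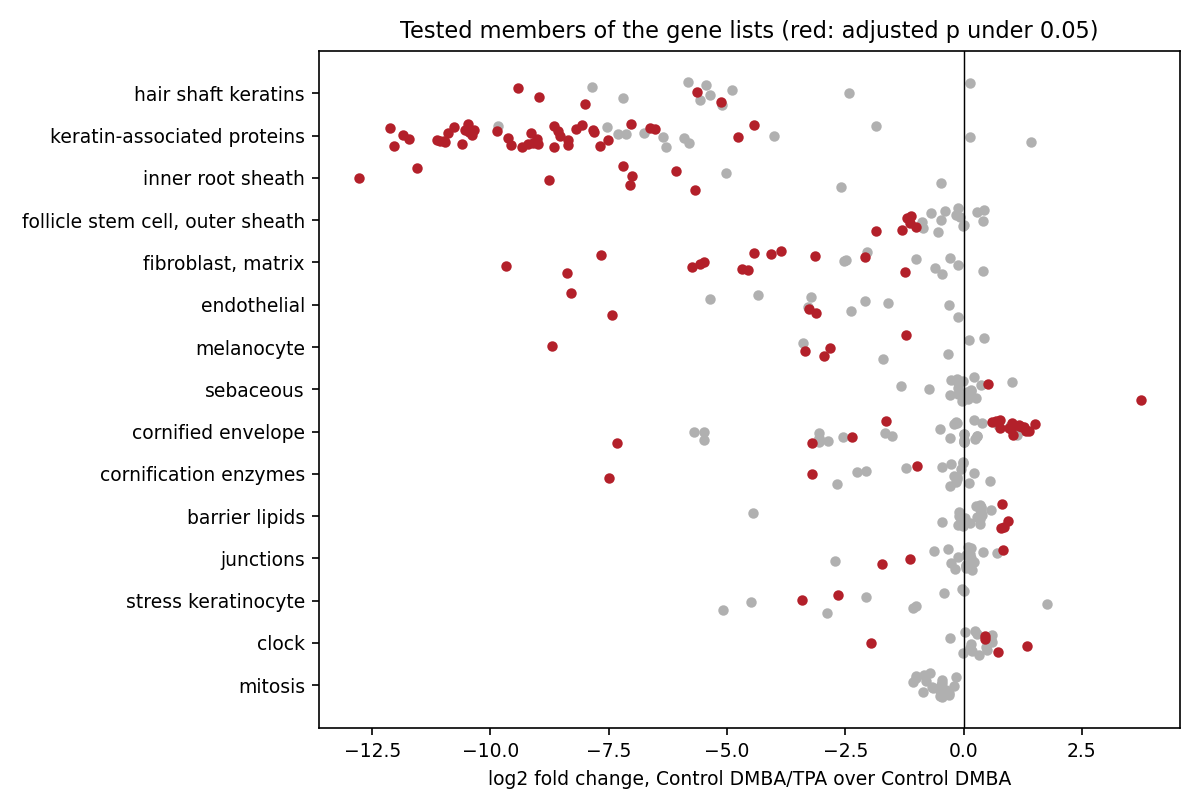
Log2 fold change of Control DMBA/TPA over Control DMBA for each tested member of 15 gene lists, 1 point per gene, with genes at an adjusted p under 0.05 in red. Hair and fibroblast genes reach far to the left, while the higher calls among cornified envelope and barrier lipid genes lie between 0 and 2; other envelope genes were called lower. Fitted values of genes with no count in a set depend on the prior count and are no bounds.

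Keratin-associated proteins, the crosslinking matrix of the hair shaft, had few or no counts in Control DMBA/TPA for most of the family. Their summed level was 376 and 401 CPM in Control DMBA 1 and 2, against 11.8 and 10.7 CPM in Control DMBA/TPA 1 and 2. Of the 57 genes, 33 had no count in either Control DMBA/TPA library. The filter kept 55, of which 42 were called lower, none higher, and 13 were not called, beside 4.28% of all tested genes called lower. The median log2 fold change of the 55 was -8.66, or -7.00 with genes at 0 counts set to their bound, beside -0.02 over all tested genes. Most passed the filter through the set in which they were high, so the count is a description and no test of the list. Krtap21-1, whose promoter is shown above, had 8.12 and 7.04 CPM in Control DMBA against 0 and 0 CPM in Control DMBA/TPA. It was at least 164-fold lower against a floor of 3 counts over the set (edgeR adjusted p = 0.00229). Krtap6-2 had 10.2 and 9.38 CPM in Control DMBA against 0 and 0.0275 CPM in Control DMBA/TPA. The latter is a single count, and the ratio was 636-fold (exact 95% counting interval 114 to 25150.0), with edgeR adjusted p = 0.00235. For both genes the 2 libraries of a set lay close together and the sets did not overlap. Krtap22-2 and Krtap9-1 also had 1 count each in Control DMBA/TPA, against 10.1 to 11.7 CPM and 6.9 to 8.65 CPM in Control DMBA. Krtap15, Krtap7-1, Krtap28-10 and Krtap4-16, among the 10 lower genes with the largest fitted change, had no count there. They were at least 289-fold to at least 381-fold lower, with edgeR adjusted p from 0.00679 to 0.0271. Krtap3-2 and Krtap5-2 were the 2 tested members whose log2 fold change was not negative. Krtap3-2 had 8.41 and 8.1 CPM in Control DMBA against 9.52 and 8.66 CPM in Control DMBA/TPA. Krtap3-2 did not pass the test (log2 fold change 0.14, SE 0.47, edgeR adjusted p = 0.883). The 8 calls named here came to 6 without Control DMBA 1, 6 without Control DMBA 2, 2 without Control DMBA/TPA 1, 5 without Control DMBA/TPA 2, 8 without DMBA 1 and 8 without DMBA 2. Over the whole list, the lower calls numbered 34 without Control DMBA 1, 35 without Control DMBA 2, 2 without Control DMBA/TPA 1 and 9 without Control DMBA/TPA 2. These genes have near-identical copies, so the split of reads among them is uncertain.

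The shaft keratins were lower in the same direction. Their sums were 89.1 and 185 CPM in Control DMBA 1 and 2, against 8.72 and 12.8 CPM in Control DMBA/TPA 1 and 2. Of 15 genes, 5 were called lower and none higher, beside 4.28% of all tested genes called lower. The median log2 fold change of the 15 was -5.56, or -5.45 with genes at 0 counts set to their bound. The same share stands beside the counts of sheath and pooled hair genes below. Such genes can pass the filter through the set in which they are high. These counts are therefore descriptions and no test of the lists. Krt84, a type II hair keratin, had 17 and 11.2 CPM in Control DMBA against 0.453 and 0.357 CPM in Control DMBA/TPA. Krt84 differed between the sets (log2 fold change -5.12 ± 0.46 (SE), edgeR adjusted p = 0.00319). Krt34 had 11.1 and 15.3 CPM in Control DMBA against 0 and 0.0275 CPM in Control DMBA/TPA. The latter is a single count, and the ratio was 861-fold (exact 95% counting interval 154 to 34030.0), with edgeR adjusted p = 0.0169. Krt86 and Krt36 were also called (edgeR adjusted p = 0.0157 and 0.0258). Krt31 and Krt35, keratins of the hair cortex, were uneven within Control DMBA and not called. They had 2.58 and 20.5 CPM and 7.53 and 31.3 CPM there, against at most 0.797 CPM in Control DMBA/TPA. Krt32 had 8.79 and 6.42 CPM in Control DMBA against 6.73 and 10.0 CPM in Control DMBA/TPA, and the sets overlapped. Krt32 was not called (log2 fold change 0.14, SE 0.39, edgeR adjusted p = 0.853). The inner root sheath, which moulds the growing shaft, was lower with more spread between libraries. Its sums were 222 and 1223 CPM in Control DMBA 1 and 2, against 6.42 and 15.9 CPM in Control DMBA/TPA 1 and 2, and Control DMBA 2 exceeded Control DMBA 1 in 10 of the 11 genes. Tchh, trichohyalin of the sheath and medulla, had 112 and 638 CPM in Control DMBA against 4.74 and 9.87 CPM in Control DMBA/TPA. Tchh passed the test (log2 fold change -5.67 ± 1.34 (SE), edgeR adjusted p = 0.0462). Krt71 had 48.3 and 272 CPM in Control DMBA against 0.139 and 2.17 CPM in Control DMBA/TPA. Krt71 was called (log2 fold change -7.02, SE 1.501, edgeR adjusted p = 0.0353). In both genes the lower Control DMBA library still exceeded both Control DMBA/TPA libraries. Krt73, Krt27, Krt72 and the peptidylarginine deiminase Padi3 were called with edgeR adjusted p from 0.0316 to 0.046. Krt72 had no count in Control DMBA/TPA and was at least 612-fold lower. In all, 8 of 11 sheath genes were called lower, and 8 without Control DMBA 1. The median log2 fold change of the 11 was -7.02. None was called by edgeR without Control DMBA 2, Control DMBA/TPA 1 or Control DMBA/TPA 2, with 9, 9 and 10 at an unadjusted p under 0.05 in those fits. None was called with limma voom or with the library number as a replicate block either, with 1 and 10 at an unadjusted p under 0.05. Out of the 10 calls named here, 9 held without Control DMBA 1, 4 without Control DMBA 2, 1 without Control DMBA/TPA 1, 1 without Control DMBA/TPA 2, 7 without DMBA 1 and 6 without DMBA 2. Over the 81 tested hair genes together, 55 were called lower, 3 without Control DMBA/TPA 1 and 10 without Control DMBA/TPA 2.

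**Figure D3:**
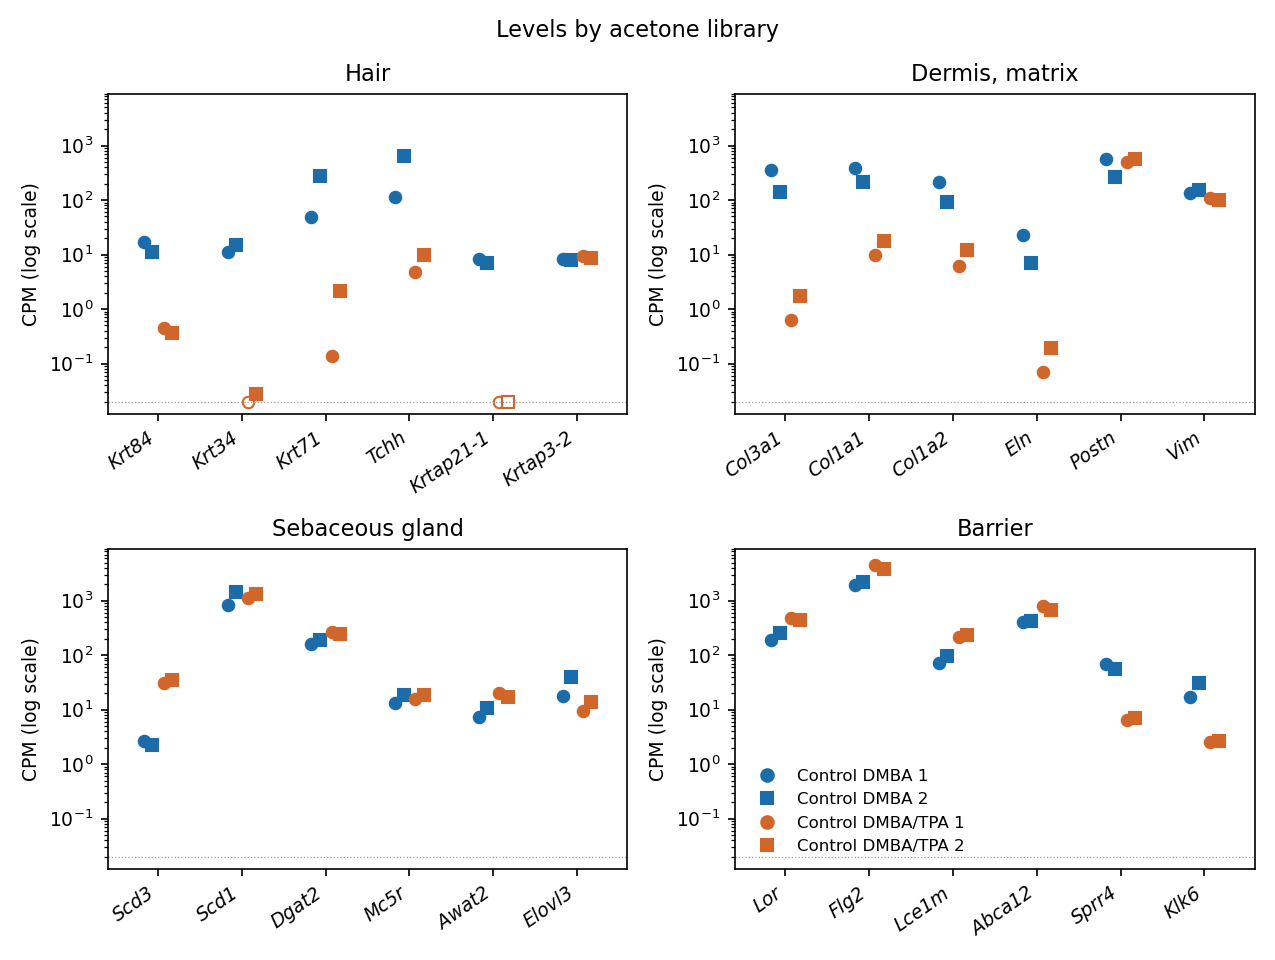
CPM on a log axis of 6 hair, 6 dermal or matrix, 6 sebaceous and 6 barrier genes in each acetone library, with circles for library 1 and squares for library 2; open symbols on the dotted line stand for 0 counts. The sets lie far apart in the hair genes other than Krtap3-2, in the collagens and Eln, and in Scd3, while barrier genes differ in both directions.

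Follicle genes of the stem cell compartment and outer root sheath gave 6 lower calls among 20 and none higher, beside 4.28% of all tested genes called lower. The median log2 fold change of the 20 was -0.51. It was -0.041 without Control DMBA 1, -0.87 without Control DMBA 2, -0.29 without Control DMBA/TPA 1 and -0.92 without Control DMBA/TPA 2. Their sums were 11416 and 8207 CPM in Control DMBA 1 and 2, against 6065 and 7509 CPM in Control DMBA/TPA 1 and 2. Sfrp1, a secreted Wnt inhibitor, had 87.7 and 94.2 CPM in Control DMBA against 49.1 and 42.2 CPM in Control DMBA/TPA. Sfrp1 differed between the sets (log2 fold change -0.996 ± 0.11 (SE), edgeR adjusted p = 0.0052). Tcf7l1, a transcriptional repressor of bulge stem cells, had 24.9 and 19.5 CPM in Control DMBA against 4.46 and 7.83 CPM in Control DMBA/TPA. Tcf7l1 passed the test (log2 fold change -1.85, SE 0.29, edgeR adjusted p = 0.0143). Lrig1, an EGF receptor inhibitor that marks cells of the upper follicle, had 513 and 403 CPM in Control DMBA against 186 and 232 CPM in Control DMBA/TPA (edgeR adjusted p = 0.0163). Tbx1, a transcription factor of the follicle, had 98.4 and 72.1 CPM in Control DMBA against 25.8 and 43.3 CPM in Control DMBA/TPA (edgeR adjusted p = 0.022). Krt17 and Krt79, a keratin of the follicle canal, were called too (edgeR adjusted p = 0.0249 and 0.0321). In each of these 6 genes the sets did not overlap. The bulge markers Krt15 and Lgr5 were not called, and Lgr5 alone spanned 21 to 86.4 CPM within Control DMBA. Control DMBA 1 was above Control DMBA 2 in 19 of the 20 genes, and its part in the result was not tested beyond leaving it out. Of the 6 genes named here as called, 1 held without Control DMBA 1, 4 without Control DMBA 2, 1 without Control DMBA/TPA 1, 2 without Control DMBA/TPA 2, 6 without DMBA 1 and 6 without DMBA 2. Of the 16 regulators of the hair matrix none was called by edgeR, with 5 at an unadjusted p under 0.05, 2 called by DESeq2 and 0 by voom. Gata3, a factor of the inner root sheath lineage, had 481 and 643 CPM in Control DMBA against 860.1 and 768 CPM in Control DMBA/TPA. Gata3 did not pass the test (log2 fold change 0.53 ± 0.18 (SE), edgeR adjusted p = 0.11).

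Fibrillar collagens and other dermal fibroblast genes were lower in Control DMBA/TPA. Of 25 fibroblast and matrix genes, 23 were tested, 14 were called lower and none higher, beside 4.28% of all tested genes called lower. Their median log2 fold change was -3.14. Their sums were 2348 and 1328 CPM in Control DMBA 1 and 2, against 833 and 924 CPM in Control DMBA/TPA 1 and 2. In bulk RNA, fewer cells of a type and less RNA per cell cannot be told apart. Fibroblast genes can pass the filter through a group in which they are high. The count of calls is therefore a description and no test of the list. Col3a1 (chr1:45311538-45349706, mm10), the collagen III gene, had 355 and 143 CPM in Control DMBA against 0.628 and 1.73 CPM in Control DMBA/TPA. Col3a1 was called (log2 fold change -7.67, SE 0.70, edgeR adjusted p = 0.00319). Col1a1, a chain of collagen I, had 395 and 210.2 CPM in Control DMBA against 9.94 and 17.9 CPM in Control DMBA/TPA (edgeR adjusted p = 0.0113). Col1a2, its partner, had 212 and 92.8 CPM in Control DMBA against 6.24 and 11.9 CPM in Control DMBA/TPA (edgeR adjusted p = 0.0111). For each of the 3 collagens, Control DMBA 1 was the highest of the 4 libraries and Control DMBA 2 still exceeded both Control DMBA/TPA libraries. Fbn1, fibrillin of elastic fibres, had 20.4 and 5.16 CPM in Control DMBA against 0.349 and 0.192 CPM in Control DMBA/TPA. Fbn1 differed between the sets (log2 fold change -5.58 ± 0.81 (SE), edgeR adjusted p = 0.0116). Eln, elastin, which is not in the list, had 22.6 and 6.96 CPM in Control DMBA against 0.0697 and 0.192 CPM in Control DMBA/TPA. Eln passed the test (log2 fold change -6.71, SE 0.80, edgeR adjusted p = 0.00646). The other 9 tested members did not pass the test. Postn, periostin, had 558 and 259 CPM in Control DMBA against 503 and 577 CPM in Control DMBA/TPA. Postn was not called (log2 fold change 0.40 ± 0.30 (SE), edgeR adjusted p = 0.426). Vim, vimentin, had 135 and 153 CPM in Control DMBA against 109 and 101 CPM in Control DMBA/TPA (edgeR adjusted p = 0.116). Fn1, fibronectin, had 39.7 and 27.5 CPM in Control DMBA against 32.3 and 29.5 CPM in Control DMBA/TPA (edgeR adjusted p = 0.843), and its sets overlapped. Control DMBA 1, the library with most Y-linked counts, was above Control DMBA 2 in 22 of the 25 genes. Without it 6 genes were called lower and 1, Postn, higher. Its part in the result was otherwise not tested. The count was 15 without Control DMBA 2, 1 without Control DMBA/TPA 1 and 1 without Control DMBA/TPA 2, where a single library stands for the set. The 5 calls named here came to 5 without Control DMBA 1, 5 without Control DMBA 2, 1 without Control DMBA/TPA 1, 1 without Control DMBA/TPA 2, 5 without DMBA 1 and 5 without DMBA 2.

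The 13 endothelial genes summed to 27.3 and 15.6 CPM in Control DMBA 1 and 2, against 9.52 and 8.44 CPM in Control DMBA/TPA 1 and 2. Of these genes, 4 were called lower and none higher, beside 4.28% of all tested genes called lower. Their median log2 fold change was -3.22, and -2.41 without Control DMBA 1. Genes of the lists in this paragraph can pass the filter through a group in which they are high. The counts of calls are therefore descriptions and no test of the lists. Tek, an angiopoietin receptor, had 1.58 and 1.14 CPM in Control DMBA against 0.105 and 0.192 CPM in Control DMBA/TPA (edgeR adjusted p = 0.00995). Pecam1, an endothelial adhesion molecule, had 3.02 and 1.17 CPM in Control DMBA against 0.174 and 0.247 CPM in Control DMBA/TPA (edgeR adjusted p = 0.0282). Cdh5 and Tie1, which define endothelium, had no count in Control DMBA/TPA. They were at least 26.6-fold and at least 14.7-fold lower (edgeR adjusted p = 0.0294 and 0.0413). Mast cell genes summed to 9.91 and 1.54 CPM in Control DMBA 1 and 2, against 1.43 and 1.54 CPM in Control DMBA/TPA 1 and 2. Of these 8 genes, 5 had no count in Control DMBA/TPA. The median log2 fold change of the 6 tested was -6.26, and -3.22 without Control DMBA 1. These list medians use fitted values, which depend on the prior count for genes with no count in a set. Tpsb2, a mast cell tryptase, had 1.11 and 0.342 CPM in Control DMBA against 0 and 0 CPM in Control DMBA/TPA. It was at least 15.7-fold lower (edgeR adjusted p = 0.0478). Corin, a protease of the dermal papilla, had no count in Control DMBA/TPA and was at least 21.3-fold lower (edgeR adjusted p = 0.0203). The dermal papilla list as a whole summed to 27 and 11.5 CPM in Control DMBA 1 and 2, against 24.7 and 27.4 CPM in Control DMBA/TPA 1 and 2. Fabp4 of adipocytes and vessels and the adult beta-globin gene Hbb-bs were called lower too (edgeR adjusted p = 0.0457 and 0.0307). The sums of their lists overlapped between the sets. Adipocyte genes summed to 10.7 and 15.3 CPM in Control DMBA 1 and 2, against 9.97 and 13.6 CPM in Control DMBA/TPA 1 and 2. Erythroid genes summed to 11.5 and 6.84 CPM in Control DMBA 1 and 2, against 8.65 and 7.28 CPM in Control DMBA/TPA 1 and 2. Of 8 adipocyte genes 4 were tested, and 2 of these were called lower. Of 5 erythroid genes 4 were tested, and 1 was called lower. The share of all tested genes called lower was 4.28%. With the library number as a replicate block, no gene of either list was called. The 8 genes of mural and smooth muscle cells summed to 629 and 606 CPM in Control DMBA 1 and 2, against 555 and 583 CPM in Control DMBA/TPA 1 and 2. Notch3 and Cspg4, which other cells express too, held most of that sum, with 436 to 503 CPM and 97.5 to 173 CPM over the 4 libraries. None of the 8 was called by edgeR, with 4 at an unadjusted p under 0.05, 4 called by DESeq2 and 0 by voom, and all 8 log2 fold changes were negative. Sums of 11 skeletal muscle genes were 3.72 and 4.16 CPM in Control DMBA 1 and 2, against 2.27 and 4.12 CPM in Control DMBA/TPA 1 and 2, with none of the 4 tested called by edgeR, with 2 at an unadjusted p under 0.05, 0 called by DESeq2 and 0 by voom. Out of the 8 calls named here, 1 held without Control DMBA 1, 6 without Control DMBA 2, 0 without Control DMBA/TPA 1, 0 without Control DMBA/TPA 2, 3 without DMBA 1 and 3 without DMBA 2.

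Sebaceous gland genes gave 2 calls among 22, both higher in Control DMBA/TPA, against 1.97% of all tested genes called higher. The median log2 fold change of the 22 was 0.08. Their sums were 3393 and 5044 CPM in Control DMBA 1 and 2, against 4211 and 4554 CPM in Control DMBA/TPA 1 and 2. Scd3 (chr19:44203269-44244016, mm10), a stearoyl-CoA desaturase of sebaceous glands, had 2.67 and 2.28 CPM in Control DMBA against 31 and 35.3 CPM in Control DMBA/TPA. Scd3 was called (log2 fold change 3.74, SE 0.32, edgeR adjusted p = 0.00265). No gene that met the naming rule rose further. Scd1, Scd3 and other desaturases of the family are close copies, and the split of reads among them is uncertain. Dgat2, which makes triglycerides, had 163 and 192 CPM in Control DMBA against 266 and 243 CPM in Control DMBA/TPA. Dgat2 differed between the sets (log2 fold change 0.52 ± 0.12 (SE), edgeR adjusted p = 0.041). Scd1, the main desaturase of the gland, had 816 and 1453 CPM in Control DMBA against 1114 and 1314 CPM in Control DMBA/TPA, and the sets overlapped. Scd1 did not pass the test (log2 fold change 0.10, SE 0.32, edgeR adjusted p = 0.881). Mc5r, the melanocortin receptor of sebocytes, had 13.5 and 18.9 CPM in Control DMBA against 15.8 and 18.8 CPM in Control DMBA/TPA, again with overlap (edgeR adjusted p = 0.903). Awat2, a wax ester synthase, had 7.48 and 10.7 CPM in Control DMBA against 19.9 and 17 CPM in Control DMBA/TPA, without overlap. Awat2 was not called (log2 fold change 1.02 ± 0.37 (SE), edgeR adjusted p = 0.138). Elovl3, a fatty acid elongase of sebum and hair, had 17.6 and 40.5 CPM in Control DMBA against 9.52 and 13.7 CPM in Control DMBA/TPA and was not called (edgeR adjusted p = 0.129). Control DMBA 2 was above Control DMBA 1 in 20 of the 22 genes. Of the 2 calls, Scd3 held in every fit that left out 1 library, and Dgat2 held in those without DMBA/TPA 1 or DMBA/TPA 2 only.

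Of 97 tested genes for the cornified envelope, its enzymes and its lipids, 19 were called higher and 7 lower in Control DMBA/TPA, beside 1.97% and 4.28% of all tested genes. The late cornified envelope proteins of the LCE1 family, which are crosslinked into the corneocyte envelope, summed to 138 and 186 CPM in Control DMBA 1 and 2, against 359 and 399 CPM in Control DMBA/TPA 1 and 2. Of 14, 8 were called higher and none lower, with a median log2 fold change of 1.11. Lce1l had 4.07 and 5.13 CPM in Control DMBA against 10.6 and 12.2 CPM in Control DMBA/TPA. Lce1l passed the test (log2 fold change 1.31, SE 0.20, edgeR adjusted p = 0.0129). Lce1m had 73.2 and 97.1 CPM in Control DMBA against 211 and 232 CPM in Control DMBA/TPA. Lce1m was called (log2 fold change 1.38 ± 0.29 (SE), edgeR adjusted p = 0.0334). Lor (chr3:92080271-92083142, mm10), loricrin, the bulk protein of the envelope, had 193 and 257 CPM in Control DMBA against 488 and 437 CPM in Control DMBA/TPA. Lor differed between the sets (log2 fold change 1.04, SE 0.20, edgeR adjusted p = 0.0255). In both Control DMBA/TPA libraries each of these genes exceeded both Control DMBA libraries. Flg2, a filaggrin relative, had 1926 and 2169.6 CPM in Control DMBA against 4479.6 and 3807 CPM in Control DMBA/TPA (edgeR adjusted p = 0.0439). Krtdap, a secreted differentiation peptide, had 369 and 421 CPM in Control DMBA against 1035 and 748 CPM in Control DMBA/TPA (edgeR adjusted p = 0.0108). Kprp, a keratinocyte proline-rich protein, had 74.6 and 78.1 CPM in Control DMBA against 236 and 196 CPM in Control DMBA/TPA. Kprp passed the test (log2 fold change 1.501 ± 0.23 (SE), edgeR adjusted p = 0.0125). Crct1 and Dmkn were called higher as well (edgeR adjusted p = 0.0189 and 0.0377). Filaggrin itself, Flg, had 240.3 and 498 CPM in Control DMBA against 354 and 320.1 CPM in Control DMBA/TPA and was not called (edgeR adjusted p = 0.806). Ivl, involucrin, had 85.8 and 102 CPM in Control DMBA against 89.6 and 73.9 CPM in Control DMBA/TPA and was not called (edgeR adjusted p = 0.429). In the opposite direction, Sprr4, a small proline-rich envelope precursor, had 69.9 and 54.6 CPM in Control DMBA against 6.38 and 7.17 CPM in Control DMBA/TPA. Sprr4 was called (log2 fold change -3.20, SE 0.23, edgeR adjusted p = 0.00188). Sprr1a had 257 and 228 CPM in Control DMBA against 48.5 and 46.8 CPM in Control DMBA/TPA. Sprr1a differed between the sets (log2 fold change -2.35 ± 0.39 (SE), edgeR adjusted p = 0.0159). Cst6, a cysteine protease inhibitor of the skin barrier, had 1493 and 864 CPM in Control DMBA against 321 and 432 CPM in Control DMBA/TPA (edgeR adjusted p = 0.0293). Tchhl1, a trichohyalin-like gene, completed the 4 envelope genes called lower (log2 fold change -7.33, edgeR adjusted p = 0.0268). It was chosen after its values were seen and is left out of the counts of held calls below. The 15 SPRR genes summed to 332 and 293 CPM in Control DMBA 1 and 2, against 57.7 and 55.9 CPM in Control DMBA/TPA 1 and 2, and 2 of 14 tested were called lower. Of the 11 genes named here as called, 3 held without Control DMBA 1, 7 without Control DMBA 2, 1 without Control DMBA/TPA 1, 2 without Control DMBA/TPA 2, 9 without DMBA 1 and 9 without DMBA 2. Of the LCE1 genes, 1 was called higher without Control DMBA 1, 7 without Control DMBA 2, and 0 without either of the Control DMBA/TPA libraries by edgeR. In those last fits 13 (without Control DMBA/TPA 1) and 12 (without Control DMBA/TPA 2) were at an unadjusted p under 0.05. LCE1 and SPRR genes are close copies within their cluster, and the split of reads among them is uncertain.

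All 4 called genes of barrier lipid synthesis rose and all 3 called enzymes of cornification fell. Abca12, the lipid transporter of lamellar granules, had 411 and 431 CPM in Control DMBA against 804 and 674 CPM in Control DMBA/TPA. Abca12 passed the test (log2 fold change 0.81, SE 0.11, edgeR adjusted p = 0.0105). Sptlc3, a subunit of serine palmitoyltransferase at the start of ceramide synthesis, had 53.6 and 58.9 CPM in Control DMBA against 103 and 99.8 CPM in Control DMBA/TPA. Sptlc3 was called (log2 fold change 0.85 ± 0.14 (SE), edgeR adjusted p = 0.0157). Ugcg, which glucosylates ceramide, had 52.1 and 49.96 CPM in Control DMBA against 93.1 and 82.3 CPM in Control DMBA/TPA (edgeR adjusted p = 0.0242). Sdr9c7, which acts on barrier ceramides, had 30.4 and 35.2 CPM in Control DMBA against 70.5 and 55.7 CPM in Control DMBA/TPA (edgeR adjusted p = 0.0282). These 4 of 25 lipid genes lay higher in both Control DMBA/TPA libraries, beside 1.97% of all tested genes called higher. The median log2 fold change of the 25 was 0.34. Elovl4, an elongase of very long fatty acids, had 446 and 724 CPM in Control DMBA against 748 and 781 CPM in Control DMBA/TPA and was not called (edgeR adjusted p = 0.308). Of 20 cornification enzymes, 3 were called lower and none higher, beside 4.28% of all tested genes called lower. Their median log2 fold change was -0.24. Klk6, a kallikrein protease, had 16.9 and 30.7 CPM in Control DMBA against 2.51 and 2.61 CPM in Control DMBA/TPA. Klk6 differed between the sets (log2 fold change -3.21, SE 0.53, edgeR adjusted p = 0.0155). Ctsd, cathepsin D, had 291 and 302 CPM in Control DMBA against 144 and 155 CPM in Control DMBA/TPA. Ctsd passed the test (log2 fold change -0.99 ± 0.18 (SE), edgeR adjusted p = 0.0197). Padi1, a peptidylarginine deiminase, had 0.938 and 6.04 CPM in Control DMBA against 0 and 0.0275 CPM in Control DMBA/TPA. The latter is a single count, and the ratio was 229.5-fold (exact 95% counting interval 40.8 to 9101), with edgeR adjusted p = 0.0239. Among 23 junction genes, Dsc1, the desmocollin of the upper layers, had 340.0 and 355 CPM in Control DMBA against 672 and 561 CPM in Control DMBA/TPA (edgeR adjusted p = 0.0105). Gja1, connexin 43 of gap junctions, had 464 and 639 CPM in Control DMBA against 254 and 252 CPM in Control DMBA/TPA (edgeR adjusted p = 0.0143). Gjb6, another connexin, had 7.94 and 11.6 CPM in Control DMBA against 2.72 and 3.19 CPM in Control DMBA/TPA (edgeR adjusted p = 0.0411). Dsp, desmoplakin, had 9264 and 9749.5 CPM in Control DMBA against 11159.7 and 10058 CPM in Control DMBA/TPA and was not called (edgeR adjusted p = 0.488). The 10 calls named here came to 5 without Control DMBA 1, 6 without Control DMBA 2, 0 without Control DMBA/TPA 1, 2 without Control DMBA/TPA 2, 9 without DMBA 1 and 8 without DMBA 2. For the barrier group as a whole, the calls numbered 10 without Control DMBA 1, 18 without Control DMBA 2, 1 without Control DMBA/TPA 1 and 3 without Control DMBA/TPA 2. Leaving out DMBA/TPA 1 or DMBA/TPA 2 raised them to 42 and 40.

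Stress keratins are made by keratinocytes in wounds and hyperplasia and, in the mouse, also in the follicle's outer layers. Krt16 had 142 and 152 CPM in Control DMBA against 19.9 and 27 CPM in Control DMBA/TPA. Krt16 was called (log2 fold change -2.65, SE 0.49, edgeR adjusted p = 0.0226). Krt6b had 19.4 and 62.3 CPM in Control DMBA against 2.44 and 5.11 CPM in Control DMBA/TPA. Krt6b differed between the sets (log2 fold change -3.41 ± 0.72 (SE), edgeR adjusted p = 0.0334). Krt6a had 738 and 657 CPM in Control DMBA against 99.2 and 233 CPM in Control DMBA/TPA, also without overlap. Krt6a did not pass the test (log2 fold change -2.07, SE 0.54, edgeR adjusted p = 0.0621). Krt6a and Krt6b are near-identical, so their counts are uncertain. Krt16 and Krt6b were 2 of 12 stress genes called lower, and none was higher, beside 4.28% of all tested genes called lower. Klf4, a transcription factor of barrier formation, had 353 and 414 CPM in Control DMBA against 560.2 and 555 CPM in Control DMBA/TPA (edgeR adjusted p = 0.0457). It was the 1 called of 12 suprabasal genes, beside 1.97% of all tested genes called higher. Basal genes gave no call by edgeR among 12, with 2 at an unadjusted p under 0.05, 2 called by DESeq2 and 1 by voom. Mitosis genes gave no call by edgeR among 20, with 9 at an unadjusted p under 0.05, 5 called by DESeq2 and 0 by voom, and all 20 log2 fold changes were negative. Their sums were 408 and 414 CPM in Control DMBA 1 and 2, against 372 and 229 CPM in Control DMBA/TPA 1 and 2. Their median log2 fold change was -0.50. It was -0.98 without Control DMBA/TPA 1 and -0.22 without Control DMBA/TPA 2. Mki67, the proliferation antigen, had 127 and 124 CPM in Control DMBA against 119.8 and 73.5 CPM in Control DMBA/TPA (edgeR adjusted p = 0.305). Out of the 3 calls named here, 1 held without Control DMBA 1, 0 without Control DMBA 2, 0 without Control DMBA/TPA 1, 0 without Control DMBA/TPA 2, 1 without DMBA 1 and 1 without DMBA 2.

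Pigment genes of melanocytes, which supply the growing hair, were called lower in Control DMBA/TPA for 5 of the 10 tested, and none was higher. Of all tested genes, 4.28% were called lower. Pigment genes can pass the filter through a group in which they are high, so the count is a description and no test. The log2 fold change was negative in 8 of the 10. The list summed to 104 and 94.1 CPM in Control DMBA 1 and 2, against 56.7 and 77.9 CPM in Control DMBA/TPA 1 and 2. Pmel, the fibril protein of melanosomes, had 10.4 and 16.6 CPM in Control DMBA against 1.46 and 2.34 CPM in Control DMBA/TPA. Pmel passed the test (log2 fold change -2.81 ± 0.34 (SE), edgeR adjusted p = 0.00646). Dct, an enzyme of melanin synthesis, had 17.6 and 26.1 CPM in Control DMBA against 8.16 and 10.6 CPM in Control DMBA/TPA. Dct was called (log2 fold change -1.22, SE 0.22, edgeR adjusted p = 0.022). Tyr, tyrosinase, which is mutant in the albino FVB strain, had 1.91 and 4.31 CPM in Control DMBA against 0.349 and 0.44 CPM in Control DMBA/TPA (edgeR adjusted p = 0.029). Oca2, a melanosome membrane protein, had no count in Control DMBA/TPA and was at least 36-fold lower (edgeR adjusted p = 0.033). Of 19 circadian clock genes, 4 were called higher and 1 lower, beside 1.97% and 4.28% of all tested genes. The hour of harvest is not given. Nfil3, a repressor of clock outputs, had 19.6 and 16.8 CPM in Control DMBA against 4.43 and 4.92 CPM in Control DMBA/TPA. Nfil3 differed between the sets (log2 fold change -1.96 ± 0.15 (SE), edgeR adjusted p = 0.00229). Nr1d1, the REV-ERB alpha repressor, had 90.5 and 108 CPM in Control DMBA against 264 and 239.6 CPM in Control DMBA/TPA. Nr1d1 passed the test (log2 fold change 1.34, SE 0.31, edgeR adjusted p = 0.0435). It overlaps Thra on the other strand, and the split of reads is uncertain. Rora, Clock and Cry2 were higher by log2 fold changes of 0.73, 0.45 and 0.46 (edgeR adjusted p = 0.0359, 0.0381 and 0.0431). The number of clock genes called higher depended on the fit. It was 1 with the library number as a replicate block, 2 with total-count scaling, 4 with voom and 7 with DESeq2. Counts of held calls at the end of this paragraph pool pigment and clock genes. Dbp, an output of the clock, had 143 and 156 CPM in Control DMBA against 225 and 224 CPM in Control DMBA/TPA and was not called (edgeR adjusted p = 0.177). Of the 9 genes named here as called, 5 held without Control DMBA 1, 3 without Control DMBA 2, 1 without Control DMBA/TPA 1, 2 without Control DMBA/TPA 2, 5 without DMBA 1 and 5 without DMBA 2.

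T cell genes summed to 108 and 143 CPM in Control DMBA 1 and 2, against 148 and 146 CPM in Control DMBA/TPA 1 and 2. Of 17, none was called by edgeR, with 1 at an unadjusted p under 0.05, 0 called by DESeq2 and 0 by voom. Langerhans cell genes summed to 599.8 and 708 CPM in Control DMBA 1 and 2, against 791 and 586 CPM in Control DMBA/TPA 1 and 2. Of 10, none was called by edgeR, with 2 at an unadjusted p under 0.05, 1 called by DESeq2 and 0 by voom. Cd3e of T cells had 23.3 and 33.2 CPM in Control DMBA against 34.2 and 33.9 CPM in Control DMBA/TPA, and Cd207, langerin, had 21.9 and 28.5 CPM in Control DMBA against 31.8 and 22.4 CPM in Control DMBA/TPA. Of 9 macrophage genes tested, 1 was called in each direction, beside 6.25% of all tested genes called in either. Adgre1, which encodes F4/80, had 7.27 and 6.87 CPM in Control DMBA against 14.4 and 11.2 CPM in Control DMBA/TPA (edgeR adjusted p = 0.0487). Cd163, a scavenger receptor of tissue macrophages, had 0.791 and 0.314 CPM in Control DMBA against 0 and 0.0275 CPM in Control DMBA/TPA. The latter is a single count, and the ratio was 35.7-fold (exact 95% counting interval 6.04 to 1448), with edgeR adjusted p = 0.0348. Of 19 interferon-stimulated genes tested, 2 were called higher, beside 1.97% of all tested genes. Ddx60, a helicase of antiviral defence, had 2.43 and 2.42 CPM in Control DMBA against 5.93 and 5.17 CPM in Control DMBA/TPA. Ddx60 was called (log2 fold change 1.19 ± 0.22 (SE), edgeR adjusted p = 0.0221). Usp18, which limits interferon signalling, had 4.19 and 7.38 CPM in Control DMBA against 13.9 and 15 CPM in Control DMBA/TPA. Usp18 differed between the sets (log2 fold change 1.32, SE 0.26, edgeR adjusted p = 0.0259). The 4 calls named here came to 0 without Control DMBA 1, 2 without Control DMBA 2, 0 without Control DMBA/TPA 1, 0 without Control DMBA/TPA 2, 1 without DMBA 1 and 1 without DMBA 2.

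Outside these lists, the largest rises after Scd3 under the naming rule, which takes protein-coding genes and leaves out predicted genes, were those of Ifitm6 and Hamp2. Ifitm6, an interferon-induced transmembrane protein, had 6.3 and 7.1 CPM in Control DMBA against 49.9 and 37.7 CPM in Control DMBA/TPA. Ifitm6 passed the test (log2 fold change 2.71 ± 0.32 (SE), edgeR adjusted p = 0.00646). Hamp2, a hepcidin, had 3.96 and 2.28 CPM in Control DMBA against 18.1 and 20.3 CPM in Control DMBA/TPA. Hamp2 was called (log2 fold change 2.62, SE 0.34, edgeR adjusted p = 0.0111). Serpinb6e, Trpm3, Slc7a2, Nkd2, Nectin3, Nr3c2 and Btc completed the 10 that the rule takes, with log2 fold changes from 1.61 to 2.36 and edgeR adjusted p from 0.00517 to 0.0364. Btc, betacellulin, a ligand of the EGF receptor, had 15 and 18.8 CPM in Control DMBA against 51.6 and 51.4 CPM in Control DMBA/TPA. Nr3c2, the mineralocorticoid receptor, had 3.34 and 2 CPM in Control DMBA against 8.44 and 9.01 CPM in Control DMBA/TPA. The 10 largest falls under the rule were all hair genes. Among abundant lower genes chosen after their values were seen, Apoe had 8898 and 6063 CPM in Control DMBA against 1715 and 1765 CPM in Control DMBA/TPA. Abca1, a cholesterol exporter, had 505 and 405 CPM in Control DMBA against 178 and 183 CPM in Control DMBA/TPA. Abca1 differed between the sets (log2 fold change -1.33 ± 0.15 (SE), edgeR adjusted p = 0.00517). Tnc, tenascin C of the matrix, had 168 and 182 CPM in Control DMBA against 36.2 and 43 CPM in Control DMBA/TPA. Tnc passed the test (log2 fold change -2.14, SE 0.15, edgeR adjusted p = 0.00182). Glul, glutamine synthetase, had 399.9 and 448 CPM in Control DMBA against 94.3 and 93.3 CPM in Control DMBA/TPA. Glul was called (log2 fold change -2.18 ± 0.16 (SE), edgeR adjusted p = 0.00196). Slc43a2, an amino acid transporter, had 206 and 185 CPM in Control DMBA against 39.4 and 46.1 CPM in Control DMBA/TPA. Slc43a2 differed between the sets (log2 fold change -2.19, SE 0.15, edgeR adjusted p = 0.00182). In each of these 5 genes the sets did not overlap. Out of the 14 calls named here, 11 held without Control DMBA 1, 10 without Control DMBA 2, 4 without Control DMBA/TPA 1, 7 without Control DMBA/TPA 2, 13 without DMBA 1 and 13 without DMBA 2.

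Each acetone set is the control of 1 regimen, so the treated libraries are set beside them here, with no test. Col3a1, high in Control DMBA, had 4.04 and 3.15 CPM in DMBA 1 and 2 and 215 and 479 CPM in DMBA/TPA 1 and 2. For Col3a1 the DMBA libraries were closer to Control DMBA/TPA than to their own control. Scd3 had 0.0646 and 0.326 CPM in DMBA 1 and 2 and 2.36 and 1.72 CPM in DMBA/TPA 1 and 2, all below both Control DMBA/TPA values. The keratin-associated proteins summed to 266 and 127 CPM in DMBA and to 559 and 129 CPM in DMBA/TPA, all above both Control DMBA/TPA libraries. Krt16 had 295 and 191 CPM in DMBA 1 and 2 and 2882 and 9234 CPM in DMBA/TPA 1 and 2. Apoe had 8267 and 7106 CPM in DMBA 1 and 2 and 2052 and 1453 CPM in DMBA/TPA 1 and 2. For Apoe the treated libraries lay nearest to their own acetone set. Sprr4 had 98.7 and 66.1 CPM in DMBA 1 and 2 and 15.9 and 12.7 CPM in DMBA/TPA 1 and 2 and again lay nearest to their own set. LCE1 genes summed to 78.7 and 122 CPM in DMBA and to 1101 and 922 CPM in DMBA/TPA.

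**Figure D4:**
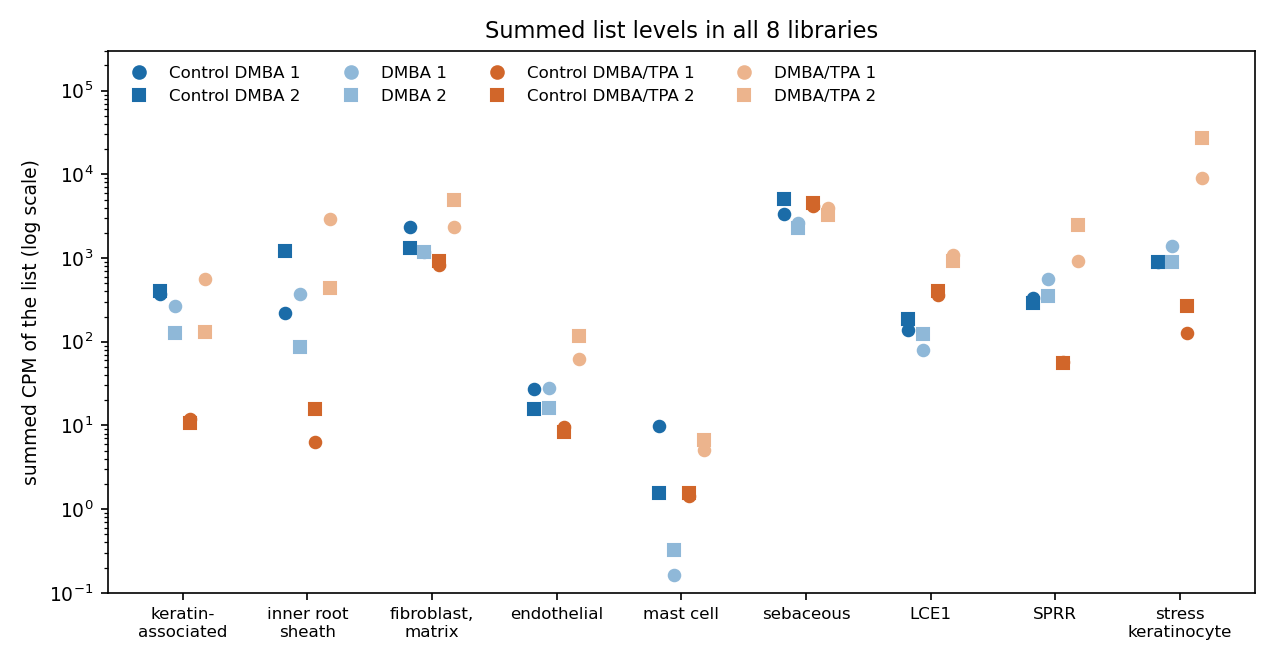
Summed CPM of 9 gene lists on a log axis in each of the 8 libraries, acetone sets in dark and treated groups in light colours, circles for library 1 and squares for library 2. The Control DMBA/TPA libraries are the lowest of all 8 in keratin-associated, inner root sheath, SPRR and stress keratinocyte sums, and the Control DMBA 1 library is the highest of the 8 in mast cell genes.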

How the data were processed

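The deposited values are whole-number counts for each Ensembl gene in every library. The submitters' processing notes name the tools TopHat2, Bowtie2, cutadapt and FastQC and the build mm10. The sources used here do not give the program that assigned reads to genes or its strand setting. RNA of Dispase-separated epidermis was depleted of ribosomal RNA and made into directional libraries, per the labels' protocols. The 5 summary rows of each file were removed; in the acetone libraries, genes held 40.88% to 43.35% of the counts, those rows included. GENCODE M21 (GRCm38, the same build as mm10) matched 99.53% of 55487 genes and gave symbols, coordinates and exon lengths.

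All 8 libraries were fitted with a mean per group in edgeR 4.0.16 (R 4.3.3, TMM scaling, filterByExpr with minimum count 10 and minimum total 15, quasi-likelihood F test, 19450 genes), and the contrast was Control DMBA/TPA minus Control DMBA, called at a Benjamini-Hochberg adjusted p under 0.05 over all tested genes. The common biological coefficient of variation was 0.165, with 4 residual and 4.23 prior degrees of freedom. CPM values use TMM-scaled library sizes; list sums add the CPM of all members in the files. Standard errors (SE) divide the size of each log2 fold change by the root of its F value. The counts of replicates differed beyond sampling noise, with chi-square per degree of freedom of 32.1 in Control DMBA and 11 in Control DMBA/TPA. Folds against 0 counts use a floor of 3 counts over the set, and intervals and floors cover counting error only. The fit was tested on simulated data.

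The members and lists were chosen with earlier results of these data known. The genes were named by a rule. It took up to 10 protein-coding genes per direction with the largest called change, a mean of at least 5 CPM and no overlap between sets. Predicted genes and pseudogenes were left out. Up to 4 called members per list and the 2 highest members of a list with no call were added. The rule also took 24 genes set by name and the 15 protein-coding nuclear genes highest per kb. Krtap3-2, Krtap9-1, Krt31, Krt32, Krt35, Tchh, Krt79, Eln, Postn, Vim, Fn1, Awat2, Elovl3, Flg2, Lce1m, Crct1, Sprr1a, Cst6, Elovl4, Nr1d1, Abca1, Tnc, Glul and Slc43a2 were chosen outside it after their values were seen, and not every gene it takes is printed. Of the genes named, Krt5, Krt10, Dsp, Gata3, Corin, Cd3e, Dbp, Elovl3, Fn1, Nr3c2, Krt32, Krt6a, Krt6b, Lrig1, Tcf7l1, Fbn1, Eln, Pmel, Padi1, Trpm3, Hamp2, Slc7a2, Tnc, Glul, Slc43a2, Rora, Cry2 and Usp18 also overlap another gene on the opposite strand, and their counts are uncertain to that extent. Alternatives within edgeR were RLE and total-count scaling, no low-count filter, the acetone libraries alone, a replicate block and leaving out each library. Further alternatives were the DESeq2 1.42.0 Wald test and limma 3.58.1 voom.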

Additional observations from a re-analysis of the deposited data

How the results depend on the processing

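RLE and total-count scaling, limma voom and the block gave counts over all genes within 1.5 times of 1216. That count was 2451 without the low-count filter, 2050 with DESeq2 and 1955 with the acetone libraries alone. Voom called 24 hair and 6 dermal genes against 55 and 14. Without the filter, 4 sebaceous and 46 barrier genes were called, and DESeq2 called 40 barrier genes. Leaving out 1 library at a time gave 43 to 2598 calls over all genes, 3 to 71 hair, 1 to 16 dermal, 1 to 3 sebaceous and 1 to 42 barrier calls. The cause was not tested, except that leaving out a library leaves fewer samples to the fit. No pairing of samples by library number was seen. The deviations of same-numbered libraries correlated at -0.152 to 0.035 between groups, which cannot decide whether samples were paired. With the number as a replicate block, 834 genes, 48 hair, 10 dermal, 1 sebaceous and 22 barrier genes were called; with the numbers crossed, chosen after seeing the data because the acetone sets correlated at -0.106, the count was 1062. Over 118 named genes and 16 alternatives, 1499 of 1888 values stayed on the same side of the threshold in the same direction, 334 lost and 38 gained the call, and 17 changed sign, all of genes uncalled in every fit where the sign changed. With voom, Krt1 came to a log2 fold change of 0.0003. Over the fits that left out 1 library, the log2 fold change ranged from -0.31 to 0.36 for Krt1, -0.048 to 0.61 for Krt10, -0.48 to 0.26 for Krt15, -0.16 to 0.41 for Krt32, -1.16 to 0.89 for Lgr5, -0.045 to 1.08 for Postn, -0.36 to 0.18 for Fn1, -0.24 to 0.57 for Scd1, -0.11 to 0.36 for Mc5r, -0.55 to 0.49 for Flg and -0.17 to 0.35 for Cd207. Depth limits what can be said of genes with at most 3 counts in a set; 33 of the 57 keratin-associated protein genes had none in Control DMBA/TPA.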

Other observations

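Of 84 cytosolic ribosomal protein genes, 81 were tested and 1, Rps29, was called (1.23%, beside 6.25% of all tested genes), with 179 and 201 CPM in Control DMBA and higher levels in both Control DMBA/TPA libraries (log2 fold change 0.50, SE 0.11, edgeR adjusted p = 0.0394). The sums of the list were 22129 and 25966 CPM in Control DMBA 1 and 2, against 24843 and 22260.0 CPM in Control DMBA/TPA 1 and 2. Of 13 mitochondrially encoded genes, 12 were tested and 1 (8.33%) was called lower, beside 4.28% of all tested genes called lower. It was mt-Nd6, a subunit of complex I, with 337 and 393 CPM in Control DMBA against 162 and 216 CPM in Control DMBA/TPA (edgeR adjusted p = 0.0312). Of 13 immediate early genes, 1 (7.69%) was called lower, beside the same 4.28% of all tested genes. It was Egr2, a zinc finger factor induced by growth signals, with 153 and 161 CPM in Control DMBA against 51.2 and 65.3 CPM in Control DMBA/TPA (edgeR adjusted p = 0.0114). Schwann cell genes summed to 84.7 and 103 CPM in Control DMBA 1 and 2, against 126 and 119 CPM in Control DMBA/TPA 1 and 2, and none of the 5 tested was called by edgeR, with 2 at an unadjusted p under 0.05, 1 called by DESeq2 and 0 by voom. The calls of Rps29, mt-Nd6 and Egr2 were lost without Control DMBA/TPA 1 and without Control DMBA/TPA 2. That of Rps29 was also lost without any 1 of the Control DMBA and DMBA libraries, and that of mt-Nd6 without either Control DMBA library.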
